A study of Mus musculus with 8 samples.

Results

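The genes described here are 10 genes that mark the fibroblasts of the meninges and of the spaces around brain vessels: Lum, Dcn, Ogn, Slc6a13, Foxc1, Pdgfra, Ptgds, Slc22a6, Aldh1a2 and Crabp2. They were taken by name from the deposited table, in which all 10 had a row among 53710 gene rows, and all 10 entered the test of 13094 protein-coding genes with a mean of at least 1 FPKM, a level scaled to transcript length and to the mapped fragments of the library. The 5xFAD group held 4 libraries, with the numbers 1, 2, 3 and 21 in their titles, of male mice that carry transgenes of familial Alzheimer’s disease behind the neuronal Thy1 promoter. The wild type group held 4 libraries, titled Normal-11, Normal-21, Normal-22 and Normal-23, of male C57BL/6 mice from another supplier, so that supplier and genotype cannot be told apart. Each library was made from total RNA of the pooled pineal glands of 5 to 7 mice, all 5 months old and killed 0.5 h after lights on, with ribosomal RNA removed. Values by library are given in this order of titles throughout. Nothing in the labels ties the libraries to separate litters or days, so that p values measure only the spread between these pools.

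The pineal gland lies under the meninges at the back of the forebrain, and its capsule and vessel sheaths are continuous with them. Leptomeningeal fibroblasts secrete collagens and small proteoglycans, take up metabolites from the cerebrospinal fluid through solute carriers, make retinoic acid, and release the lipocalin-type prostaglandin D synthase into the fluid. Their precursors depend on the forkhead factor Foxc1. Few of these genes belong to fibroblasts alone. Pdgfra is also expressed by oligodendrocyte precursors and Ptgds by oligodendrocytes and arachnoid cells.

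The depth of each library was read from the smallest values of genes with 1 transcript, of which 151 to 196 a library lay on a common step. Taken as 1 fragment, this step came to 0.0288 to 0.0473 FPKM on a transcript of 2 kb, so that 1 FPKM there stood for 21.1 to 34.8 fragments. Summed over all protein-coding genes the libraries had 320286 to 391275 FPKM. The glands carried pineal transcripts, with a mean of 1252 ± 602 FPKM in 5xFAD and 865 ± 295 FPKM in wild type (SD, n = 4 each) for Tph1, the first enzyme of melatonin synthesis. Normal-22 went against its stated sex. It had 13.3 FPKM of Xist, the RNA of the inactive X chromosome, against 0.00480 to 0.0404 FPKM in the other 7 libraries, beside 32.0 FPKM of the Y-linked gene Ddx3y. Normal-22 and 5xFAD-21 also stood apart in the fibroblast genes, and the differences below are therefore given with and without them.

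No fibroblast gene passed the test between the groups. At an adjusted p under 0.05 from limma over all genes tested, 0 of 10 were called, where 0.0382% of all genes were (0.0305% higher and 0.00764% lower in 5xFAD), and 0 of 10 had an unadjusted p under 0.05, where 7.95% of all genes did. The groups overlapped for each of the 10, while they did not overlap for 4.34% of all genes. The 3 proteoglycans, Foxc1 and Pdgfra had log2 fold changes from −0.43 to −0.08 in 5xFAD over wild type, and the transporters, the retinoid genes and Ptgds had values from 0.10 to 0.45, but the signs of Dcn, Ogn, Foxc1 and Crabp2 turned when single libraries were left out, that of Dcn to 0.32, of Ogn to 0.10 and of Foxc1 to 0.01 without 5xFAD-21, and that of Crabp2 to −0.22 without Normal-22. The median of the 10 was 0.01, that of all genes tested −0.01. All fold changes are on the scale of log2(FPKM + 0.1), and the RNA of a whole gland cannot tell fewer cells of a type from less RNA per cell.

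**Figure D1:**
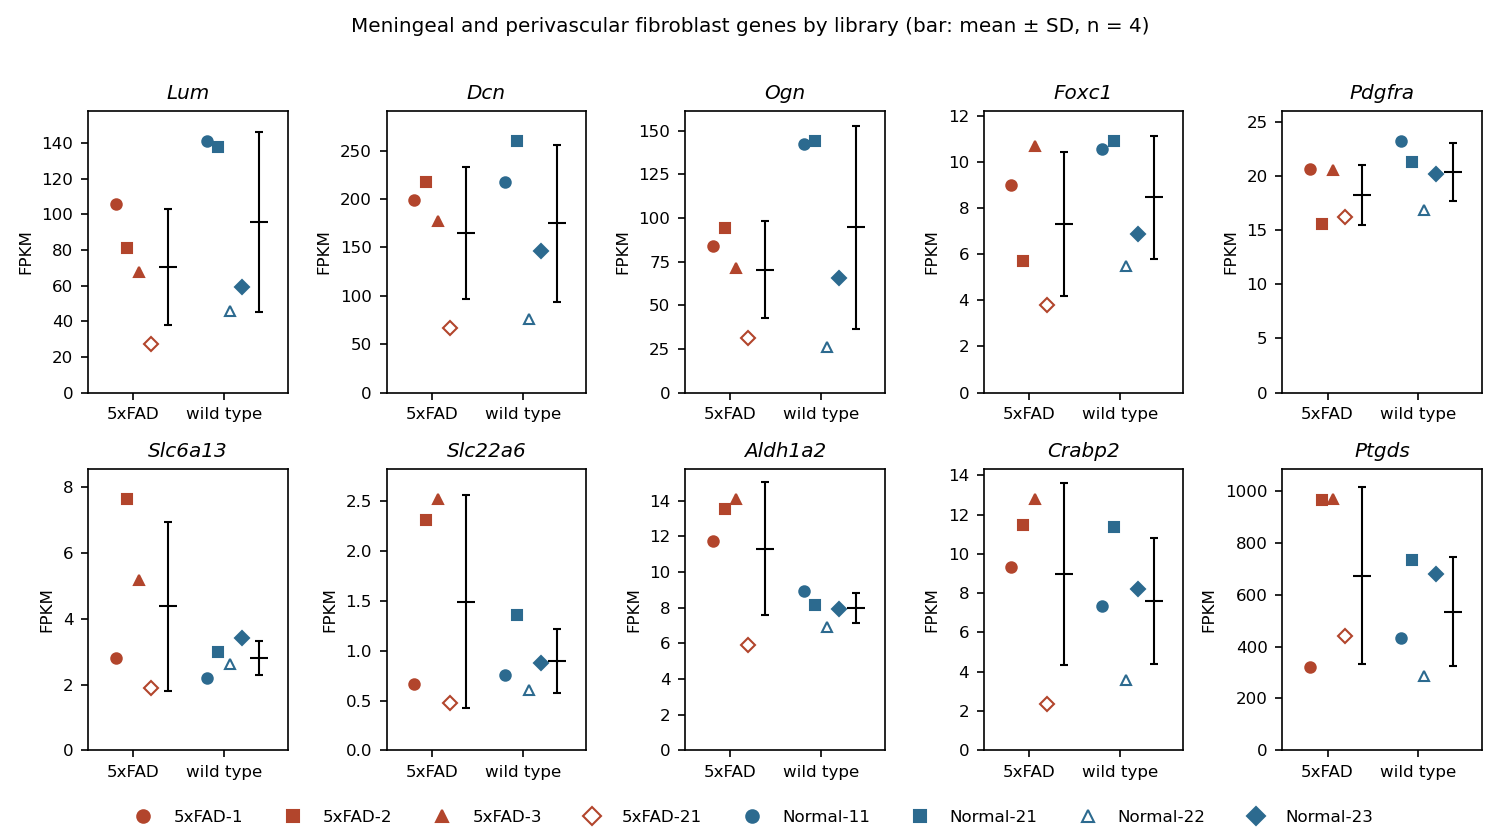
FPKM of each of the 10 fibroblast genes in the 4 5xFAD libraries (left, red) and the 4 wild type libraries (right, blue), with the mean ± SD of each group as a bar. Open symbols mark 5xFAD-21 and Normal-22, which were the lowest pair of the 8 libraries for 7 of the 10 genes; the groups overlap in every panel.

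Lum, Dcn and Ogn encode lumican, decorin and osteoglycin, small leucine-rich proteoglycans that bind collagen fibrils. Lum had 106, 81.0, 67.5 and 27.3 FPKM in the 5xFAD libraries, against 141, 138, 45.4 and 59.0 FPKM in the wild type libraries. The highest pair was Normal-11 and Normal-21, and the other 2 wild type libraries lay inside the range of 5xFAD. Its log2 fold change was −0.43 (standard error, SE, 0.50; adjusted p = 0.816 from limma), with a 95% interval from −1.57 to 0.71. Without 5xFAD-21 it was −0.03, without Normal-11 −0.19, without Normal-21 −0.20, without 5xFAD-1 −0.68 and without Normal-22 −0.73. Dcn stood higher, at 199, 218, 177 and 66.3 FPKM in the 5xFAD libraries and 217, 259.6, 76.0 and 146 FPKM in the wild type libraries. Apart from the low 5xFAD-21 and Normal-22, its libraries lay between 146 and 259.6 FPKM. The log2 fold change of Dcn was −0.08 (SE 0.47, adjusted p = 0.973). Ogn had 83.9, 94.4, 71.5 and 31.3 FPKM in 5xFAD, against 142, 144, 26.1 and 65.8 FPKM in wild type. Here too Normal-11 and Normal-21 led and the other wild type libraries were at or under most of 5xFAD, for a log2 fold change of −0.25 (SE 0.57, adjusted p = 0.914).

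On GRCm38 these genes sit in 2 clusters of their family. Dcn spans chr10:97479609-97518143 and Lum chr10:97565128-97572703, 46.98 kb apart on the same strand, followed by Kera and Epyc. Ogn spans chr13:49608046-49624501 and follows Aspn and Omd, with 15.2 kb between Omd and Ogn. These neighbours were named for their position. Aspn had 9.38, 14.9, 9.61 and 2.59 FPKM in 5xFAD, against 46.1, 43.8, 2.85 and 9.21 FPKM in wild type, and Omd had 6.73, 11.1, 9.85 and 2.51 FPKM in 5xFAD, against 17.01, 38.2, 2.38 and 8.20 FPKM in wild type. Like Ogn, both were highest in Normal-11 and Normal-21 and lowest in 5xFAD-21 and Normal-22. Kera, the keratocan gene of the cornea, stayed at 0 to 0.0336 FPKM. Epyc, between 2.96 and 13.4 FPKM, was highest in 5xFAD-1. The next gene beyond Ogn outside the family, Nol8, ranged over 7.96 to 11.7 FPKM only. Of 15 genes of small leucine-rich proteoglycans 13 reached the mean of 1 FPKM and are called measured here and for the lists below. Of these 12 had a log2 fold change below 0 and 0 passed, with a median of −0.43, where 6712 of all 13094 genes tested lay below 0. Lum, Dcn and Ogn are counted in this list, and its median is the value of Lum. The related lists below likewise count again those of the 10 genes that belong to them. Genes of a list can also move together with single libraries, so that counts for this and the later lists are not of independent genes. Bgn, biglycan, stood at −0.63 (adjusted p = 0.763), Fmod, fibromodulin, at −0.53 (0.851) and Optc, opticin of the eye, at −0.62 (0.744).

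Foxc1 and Pdgfra regulate mesenchyme, one as a transcription factor that meningeal precursors need, the other as the α receptor for platelet-derived growth factors. Foxc1, at chr13:31806633-31812476, had 8.99, 5.72, 10.7 and 3.79 FPKM in the 5xFAD libraries, against 10.6, 10.9, 5.51 and 6.88 FPKM in the wild type libraries. Each group held libraries above 10 and below 6 FPKM, and the log2 fold change was −0.26 (SE 0.35, adjusted p = 0.84 from limma). Pdgfra, at chr5:75152292-75198215, was the steadiest of the 10, with 20.6, 15.6, 20.6 and 16.2 FPKM in 5xFAD and 23.2, 21.3, 16.9 and 20.2 FPKM in wild type. Its highest library was 1.49 times its lowest, where the other 9 genes had ratios of 2.39 to 5.51. The log2 fold change of −0.16 had an SE of 0.14 and a 95% interval from −0.49 to 0.16 (adjusted p = 0.777), the narrowest of the 10. Among 20 measured transcription factors of the meninges 18 lay below 0 and 0 passed, with a median of −0.34, beside 6712 of all 13094 genes tested below 0. Zic1, a zinc finger factor, had 25.9 ± 3.46 FPKM in 5xFAD and 33.7 ± 8.34 FPKM in wild type (SD, n = 4 each), a log2 fold change of −0.36 (adjusted p = 0.644). Its relatives Zic4 and Zic2 stood at −0.32 (0.699) and −0.04 (0.948). Of the 6 genes of PDGF ligands and receptors 5 lay below 0, with Pdgfrb, the receptor of pericytes and fibroblasts, at −0.51 (0.776), Pdgfb at −0.44 (0.763) and Pdgfd at 0.10 (0.771).

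Slc6a13 encodes the taurine and GABA transporter GAT2 and Slc22a6 the organic anion transporter OAT1. Slc6a13, at chr6:121300227-121337733, had 2.81, 7.63, 5.18 and 1.9004 FPKM in the 5xFAD libraries, against 2.20, 3.00, 2.63 and 3.41 FPKM in the wild type libraries. The high values of 5xFAD came from 5xFAD-2 and 5xFAD-3, while the other 2 libraries lay within or below wild type. Its log2 fold change was 0.45 (SE 0.40, adjusted p = 0.777 from limma), but 0.12 without 5xFAD-2, 0.31 without 5xFAD-3 and 0.77 without 5xFAD-21. Slc22a6, at chr19:8618039-8628299, was the lowest of the 10 genes, with 0.671, 2.31, 2.52 and 0.478 FPKM in 5xFAD and 0.755, 1.36, 0.604 and 0.877 FPKM in wild type. On its transcript of 3983 nt in GENCODE M21 these values stood for about 23.4 to 168 fragments. The deposited table holds another version of this gene, so that the length used for its FPKM may differ. The pattern was that of Slc6a13, with 5xFAD-2 and 5xFAD-3 on top and 5xFAD-21 at the bottom, and the log2 fold change was 0.43 (SE 0.56, adjusted p = 0.835), but 0.13 without 5xFAD-2, 0.09 without 5xFAD-3, 0.68 without 5xFAD-1, 0.28 without Normal-22 and 0.82 without 5xFAD-21. Each transporter gene lies beside a relative. Slc6a12 starts 5.34 kb after Slc6a13 and had 0.129 to 0.779 FPKM, and Slc22a8 ends 6.20 kb before Slc22a6 and had 1.31, 5.28, 4.05 and 5.80 FPKM in 5xFAD, against 4.12, 4.97, 3.16 and 4.63 FPKM in wild type. For Slc22a8, which the choroid plexus also expresses, 5xFAD-21 was the highest library and not the lowest. Over the 11 measured meningeal transporters 5 lay above 0 and 6 below it, and 0 passed. Slc6a20a, a proline transporter, had 33.5 ± 3.497 FPKM in 5xFAD and 27.6 ± 1.82 FPKM in wild type (SD, n = 4 each), a log2 fold change of 0.27 (unadjusted p = 0.0313 and adjusted p = 0.6 from limma). Slc22a2 stood at 0.61 (adjusted p = 0.654), Slc23a2, of vitamin C uptake, at −0.24 (0.787) and Slc47a1 at −0.78 (0.703).

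Aldh1a2 makes retinoic acid from retinal, and Crabp2 carries it to its nuclear receptors. Aldh1a2, at chr9:71215789-71296243, had 11.7, 13.5, 14.1 and 5.90 FPKM in the 5xFAD libraries, against 8.94, 8.13, 6.90 and 7.93 FPKM in the wild type libraries. 5xFAD-21 lay below every wild type library and the other 3 5xFAD libraries above every one. The log2 fold change was 0.43 (SE 0.26, adjusted p = 0.696 from limma), and by its p value Aldh1a2 ranked 2576 of 13094 genes, ahead of the other 9. Without 5xFAD-21 it was 0.71 (unadjusted p = 7.24e-04, adjusted p = 0.395) and without both 5xFAD-21 and Normal-22 0.65 (unadjusted p = 0.00128, adjusted p = 0.107). As 5xFAD-21 was the only 5xFAD library below wild type, leaving it out separates the groups by construction. These p values are therefore a description and no test. Crabp2, at chr3:87948666-87953376, had 9.34, 11.5, 12.8 and 2.36 FPKM in 5xFAD, against 7.34, 11.4, 3.59 and 8.19 FPKM in wild type. It showed no order by group, with 5xFAD-21 and Normal-22 far below the other 6 libraries, and its log2 fold change was 0.10 (SE 0.55, adjusted p = 0.967). Of 16 measured genes of the retinoic acid pathway 10 lay above 0 and 6 below it, with a median of 0.15, and 0 passed. Crabp1, the paralog of Crabp2, was the most abundant, with 248 ± 62.3 FPKM in 5xFAD and 203 ± 75.2 FPKM in wild type (SD, n = 4 each), at 0.32 (adjusted p = 0.757). Among the receptors, Rara stood at −0.32 (unadjusted p = 0.0257, adjusted p = 0.597), Rxrb at −0.19 (0.652) and Rxrg, which photoreceptors also express, at 0.41 (0.734).

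Ptgds, the prostaglandin D synthase of the meninges and a major protein of the cerebrospinal fluid, was the most abundant of the 10 genes. It lies on the minus strand at chr2:25466709-25470046 and had 320.2, 965, 967 and 440.0 FPKM in the 5xFAD libraries, against 434, 735, 288 and 678 FPKM in the wild type libraries. The top pair was again 5xFAD-2 and 5xFAD-3, but unlike the other 9 genes Ptgds was above 5xFAD-1 in 5xFAD-21. The log2 fold change was 0.27 (SE 0.44, adjusted p = 0.867 from limma). It was 0.00524 without Normal-22 and 0.04 without 5xFAD-2 or without 5xFAD-3, and 0.57 without 5xFAD-1. In the prostaglandin pathway 6 of 14 measured genes lay above 0 and 8 below it, and 0 passed. Ptges3, a prostaglandin E synthase and Hsp90 co-chaperone, had 62.9 ± 7.87 FPKM in 5xFAD and 49.3 ± 3.55 FPKM in wild type (SD, n = 4 each), with all 4 5xFAD libraries above all 4 wild type libraries, a log2 fold change of 0.35 (unadjusted p = 0.0134, adjusted p = 0.568). Ptges stood at 0.27 (adjusted p = 0.765) and Ptgfr, the receptor for prostaglandin F2α, at −0.90 (0.629).

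**Figure D2:**
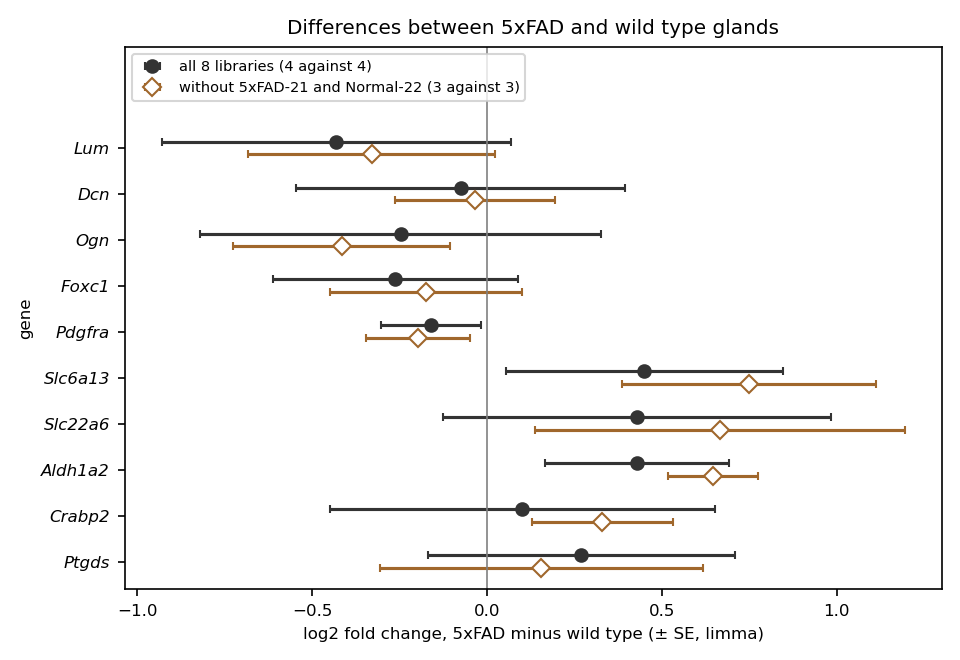
Log2 fold change of each fibroblast gene, 5xFAD minus wild type, with its standard error from limma, for all 8 libraries (filled circles) and without 5xFAD-21 and Normal-22 (open diamonds). The 5 genes at the top stay below 0 and the 5 at the bottom above 0 in both fits; Aldh1a2 stands at 0.43 and 0.65.

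The fibroblast genes also moved with single libraries. In 5xFAD-21 and in Normal-22 all 10 genes lay below their own mean over the 8 libraries, a pattern that 27.5% of all genes tested had. These libraries were the lowest pair for 7 of the 10 genes and for 11.6% of all genes. The pair was picked after the values of the 10 genes were seen, so that these shares describe the pattern and do not test it. Crabp2 averaged 2.97 FPKM in this pair and 10.1 FPKM in the other 6 libraries, Ogn 28.7 and 100.3 FPKM, and Pdgfra 16.6 and 20.2 FPKM. 5xFAD-3 was highest for 4 genes, Normal-21 for 3, Normal-11 for 2 and 5xFAD-2 for 1. The mean deviation of the 10 genes from their own means, on the log2 scale, was 0.07, 0.47, 0.48 and −0.92 in the 5xFAD libraries, and 0.19, 0.45, −0.71 and −0.04 in the wild type libraries. Without 5xFAD-21 and Normal-22 the log2 fold changes were −0.33 for Lum, −0.03 for Dcn, −0.42 for Ogn, −0.17 for Foxc1 and −0.20 for Pdgfra, and 0.75 for Slc6a13, 0.67 for Slc22a6, 0.33 for Crabp2 and 0.16 for Ptgds beside the 0.65 of Aldh1a2. All 10 kept their sign and 0 passed, while 29 of the 13156 genes tested in that fit did. The medians of the lists were then −0.51 for small proteoglycans, −0.66 for fibroblast matrix, −0.45 for transcription factors and 0.02 for the retinoic acid pathway. The spread over the 8 libraries put 9 of the 10 genes above the 75th percentile of all genes tested by SD of log2 values, from 75.8 for Aldh1a2 to 94.4 for Ogn, and Pdgfra at 34.8.

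**Figure D3:**
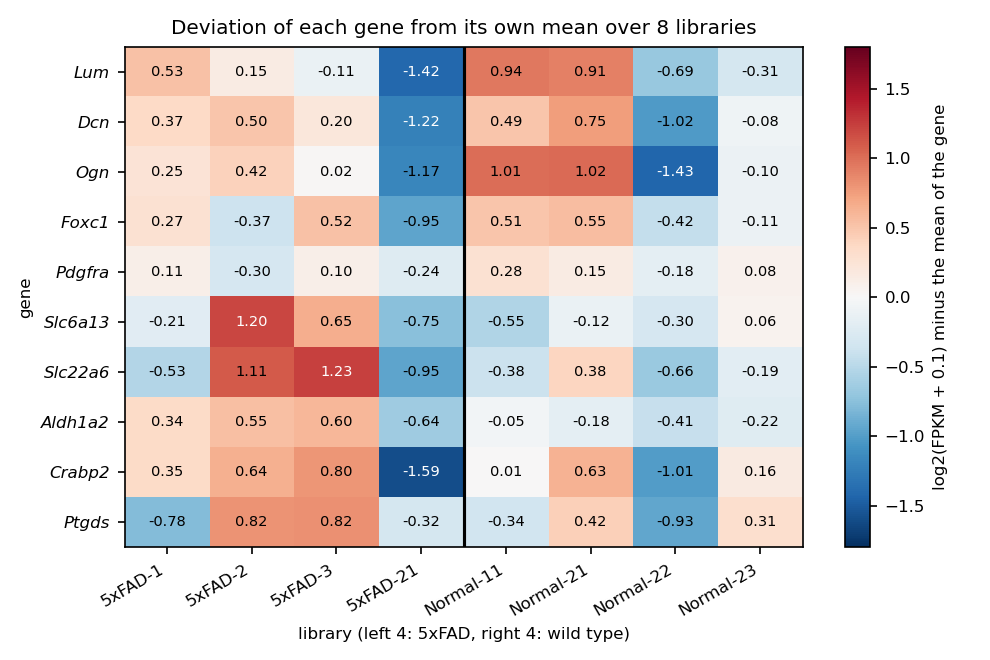
Log2(FPKM + 0.1) of each fibroblast gene in each library minus the mean of that gene over the 8 libraries, with 5xFAD left and wild type right of the line. The columns of 5xFAD-21 and Normal-22 are below 0 throughout; Lum and Ogn are highest in Normal-11 and Normal-21, and Slc6a13, Slc22a6 and Ptgds in 5xFAD-2 and 5xFAD-3.

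Across the 8 libraries the levels of several of the genes ran together. Of 45 pairs, 9 had a Pearson r with an adjusted p under 0.05 from an exact permutation test (two-sided, Benjamini-Hochberg over the 45). The test treats the 8 libraries as exchangeable across both groups and both sets of titles. The share of such pairs among all genes tested was not computed, so the count cannot show that the relation is particular to these genes. Dcn and Ogn had r = 0.96 (exact permutation p = 4.46e-04, adjusted p = 0.01) and Spearman's rho = 0.95 (p = 0.00114), and r was 0.88 without the 2 libraries farthest from the median, which were 5xFAD-21 and Normal-22. Lum followed Dcn with r = 0.92 (exact permutation p = 3.47e-04, adjusted p = 0.01; rho = 0.88, p = 0.00724) and r = 0.88 without its 2 farthest libraries. Slc6a13 and Slc22a6 had r = 0.90 (exact permutation p = 0.00288, adjusted p = 0.0324; rho = 0.88, p = 0.00724), and r = 0.67 without 5xFAD-2 and 5xFAD-3. Ptgds and Slc22a6 had r = 0.88 (exact permutation p = 0.00424, adjusted p = 0.0382; rho = 0.86, p = 0.0107), and r = 0.86 without 5xFAD-3 and Normal-22. The remaining 3 of the 8 that kept r above 0.6 without the farthest libraries beside these and Lum with Ogn were Foxc1 with Pdgfra, Lum with Foxc1 and Aldh1a2 with Crabp2. The farthest libraries are those of the first gene named in a pair and differ between pairs. For Lum with Foxc1, r was 0.55 without 5xFAD-21 and Normal-22. Lum and Slc6a13 had r = 0.17 (exact permutation p = 0.685, adjusted p = 0.737, rho = 0.14, p = 0.752), and r = −0.60 without 5xFAD-21 and Normal-22. The relation of Dcn and Crabp2 rested on the low pair of libraries, with r = 0.92 over 8 libraries (exact permutation p = 0.00846, adjusted p = 0.0455; rho = 0.64, p = 0.0962) and 0.25 without them. Each set of titles, those numbered 21 to 23 and the others, held 4 libraries, too few for an r of its own.

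The balance of transporter, retinoid and matrix genes within a library can be read from ratios, which were chosen after the values were seen and were not tested. For each 1000 FPKM of Lum there were 26.6, 94.3, 76.7 and 69.7 FPKM of Slc6a13 in the 5xFAD libraries and 15.6, 21.8, 57.8 and 57.8 FPKM in the wild type libraries. For Aldh1a2 the same ratio was 111, 167, 209 and 216 in 5xFAD and 63.5, 59.0, 152 and 134 in wild type. The wild type libraries parted into Normal-11 and Normal-21, rich in Lum, and Normal-22 and Normal-23, and in both ratios the groups overlapped.

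The promoters of 7 of the 10 genes were matched by symbol in the RefSeq sequences of GRCm38.p6, from 250 bases before to 50 after the start; Lum, Dcn and Crabp2 had no entry. Those of 4 genes are shown, chosen after the levels were seen: Ogn, the proteoglycan with the widest range, chr13:49607765-49608064, Slc6a13, chr6:121300038-121300337 (the most upstream of its 3 starts), and Slc22a6, chr19:8617746-8618045, the transporters that ran together, and Aldh1a2, chr9:71215539-71215838, which came nearest to the threshold. All lie on the plus strand. Capitals mark matches on either strand to the TATA box TATAAA, the CCAAT box CCAAT, the GC box GGGCGG, the retinoic acid receptor motif AGGTCA and the forkhead core TGTTTAC.
Ogn: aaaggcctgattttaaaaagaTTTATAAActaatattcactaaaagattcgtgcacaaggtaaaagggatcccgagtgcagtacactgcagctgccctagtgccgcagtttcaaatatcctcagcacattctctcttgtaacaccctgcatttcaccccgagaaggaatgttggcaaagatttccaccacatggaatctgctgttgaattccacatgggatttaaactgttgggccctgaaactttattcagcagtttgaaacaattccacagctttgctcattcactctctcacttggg
Slc6a13: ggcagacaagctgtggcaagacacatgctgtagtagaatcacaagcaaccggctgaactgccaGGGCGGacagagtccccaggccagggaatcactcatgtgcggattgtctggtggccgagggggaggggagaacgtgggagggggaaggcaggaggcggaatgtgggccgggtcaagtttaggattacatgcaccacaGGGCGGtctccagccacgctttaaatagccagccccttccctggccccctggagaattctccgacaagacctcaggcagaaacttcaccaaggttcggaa
Slc22a6: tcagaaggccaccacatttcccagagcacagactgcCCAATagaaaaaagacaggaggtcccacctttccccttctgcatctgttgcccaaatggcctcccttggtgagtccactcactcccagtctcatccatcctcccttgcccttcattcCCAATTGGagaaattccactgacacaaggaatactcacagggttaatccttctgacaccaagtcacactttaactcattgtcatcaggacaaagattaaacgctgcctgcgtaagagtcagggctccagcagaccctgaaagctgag
Aldh1a2: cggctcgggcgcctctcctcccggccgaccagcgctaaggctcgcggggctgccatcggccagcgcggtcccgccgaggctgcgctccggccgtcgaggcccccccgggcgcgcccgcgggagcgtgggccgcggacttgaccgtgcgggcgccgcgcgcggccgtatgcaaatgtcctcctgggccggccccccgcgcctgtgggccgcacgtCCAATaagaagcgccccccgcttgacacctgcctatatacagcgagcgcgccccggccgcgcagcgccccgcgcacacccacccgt

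Aldh1a2 has 78.0% G and C and 50 CpG dinucleotides in this window, where all 32851 promoters of the table have medians of 52.7% and 7. Ogn is at 42.3% with 4, Slc22a6 has 2 CpG, and Slc6a13 is at 59.0% with 11. The capitals of Ogn are TATAAA on both strands, overlapping by 4 bases and far upstream of the start, a motif in 13.6% of all promoters. Slc22a6 has CCAAT at 3 places, of which 2 overlap on opposite strands, and Aldh1a2 has it once (37.4% of all promoters). Slc6a13 has GGGCGG at 2 places (35.7%). AGGTCA (16.3%) and TGTTTAC (3.65%) are not in these 4 windows. At its other 2 starts Slc6a13 has CCAAT once each, and AGGTCA once at the most downstream of them, so that whether these transporters share a motif depends on the start.

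Beside the fibroblast genes, the markers of other cell types were read in the same libraries. Lists of vessel, bone, cartilage, neutrophil, matrix, glial and fat genes all lay below their own means in the same pair of libraries. The mean log2 deviation of 24 fibroblast matrix genes was 0.21, 0.06, −0.11 and −1.54 in the 5xFAD libraries, and 1.15, 1.06, −1.05 and 0.24 in the wild type libraries. For 9 endothelial genes it was −1.02 in 5xFAD-21 and −0.80 in Normal-22, for 9 genes of smooth muscle and pericytes −1.12 and −0.63, for 8 of 10 genes of osteoblasts and osteocytes −2.20 and −1.74, and for 6 of 7 neutrophil genes −2.33 and −2.45. Cartilage genes stood at −1.37 and −1.35 and astrocyte genes at −0.42 and −0.29. Oligodendrocyte genes stood at −0.31 and −0.68 and genes of their precursors at −0.58 and −0.25. The fat list, at −1.54 and −1.64, was above 0 only in 5xFAD-2. The 10 pinealocyte markers stood at −0.08 and 0.29 in these 2 libraries. Of them only Aanat was lowest in this pair, at 0.943 FPKM in 5xFAD-21 and 1.21 FPKM in Normal-22, against 2.08 to 34.8 FPKM elsewhere. The choroid plexus list did not dip in both, with 1.03 in 5xFAD-21 and −0.25 in Normal-22. This list was lowest in 5xFAD-1, at −3.61, where Ptgds was under its level in 5xFAD-21. The part of these cell types in the levels of the fibroblast genes was not tested.

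**Figure D4:**
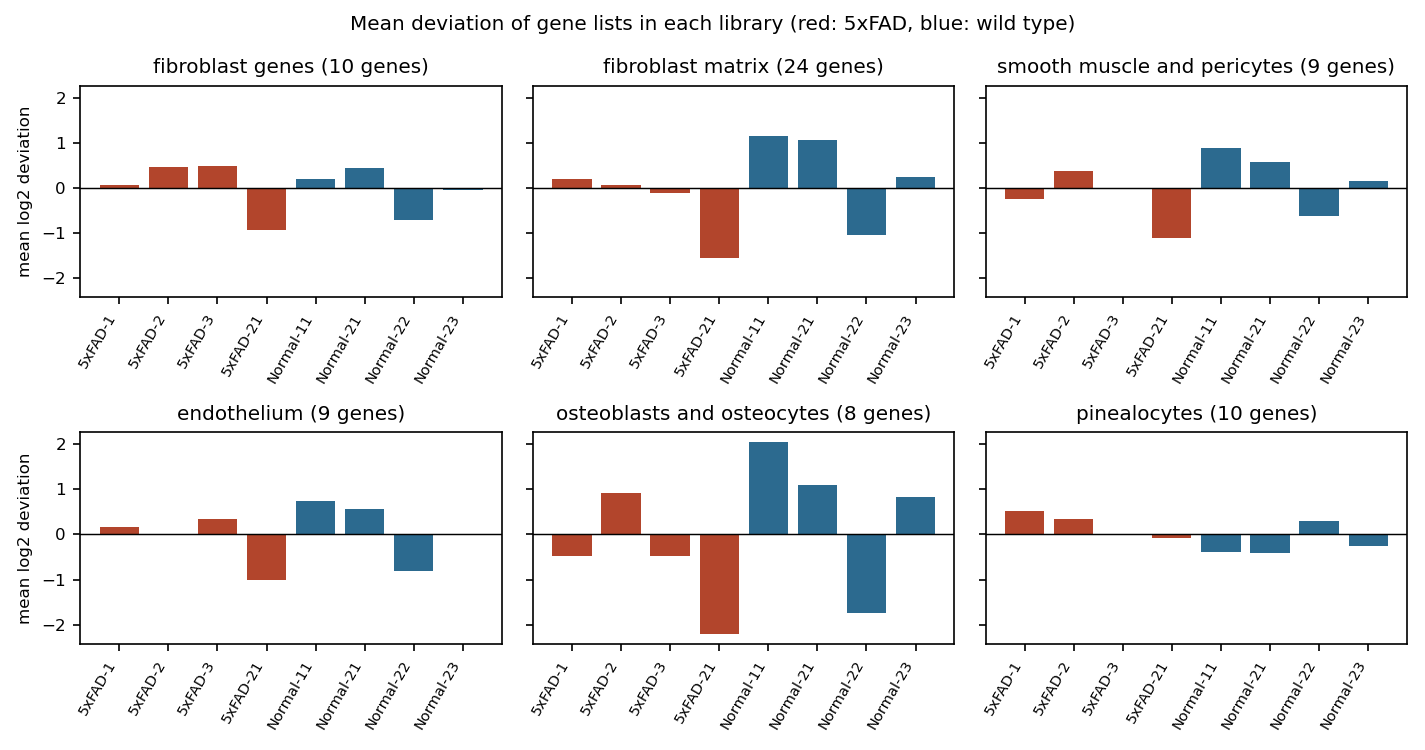
Mean log2 deviation of the measured genes of 6 lists from their own means in each library, with 5xFAD libraries in red and wild type libraries in blue. The fibroblast, matrix, smooth muscle, endothelial and bone lists all dip in 5xFAD-21 and Normal-22, at −0.92 and −0.71 for the 10 fibroblast genes.

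Summed over each list, the ranges of the groups overlapped, and no marker was at 0 in all 8 libraries. Endothelial markers came to 51.2 to 132 FPKM in 5xFAD and 61.2 to 182 FPKM in wild type, smooth muscle and pericyte markers to 77.3 to 165 FPKM in 5xFAD and 102 to 274 FPKM in wild type, and osteoblast and osteocyte markers to 21.9 to 83.7 FPKM in 5xFAD and 32.2 to 188 FPKM in wild type. Astrocyte markers came to 97.2 to 181 FPKM in 5xFAD and 114 to 145 FPKM in wild type, and cartilage markers, of which 3 of 9 were measured, to 6.89 to 16.7 FPKM in 5xFAD and 9.85 to 86.6 FPKM in wild type. Neutrophil markers came to 22.97 to 247 FPKM in 5xFAD and 20.0 to 442 FPKM in wild type. Oligodendrocyte markers, of a cell that also expresses Ptgds, came to 56.2 to 151 FPKM in 5xFAD and 58.6 to 107 FPKM in wild type. The most abundant of them was Cldn11, a claudin that is also on the list of other meningeal genes, with 22.3 to 91.5 FPKM in 5xFAD and 34.8 to 54.5 FPKM in wild type. Of these 9 markers 5 were measured, and Mog, a defining gene of myelin, is listed at 0 in 5xFAD-2, 5xFAD-21, Normal-22 and Normal-23. The oligodendrocyte list had a mean log2 deviation of 0.06, −0.77, 0.92 and −0.31 in the 5xFAD libraries and 0.46, 0.34, −0.68 and −0.01 in the wild type libraries. Of the top pair for Ptgds, 5xFAD-3 was thus the highest of the 8 libraries for this list and 5xFAD-2 the lowest. Markers of oligodendrocyte precursors, which also express Pdgfra, summed to 2.30 to 5.08 FPKM in 5xFAD and 2.92 to 4.99 FPKM in wild type, under the 15.6 to 23.2 FPKM of Pdgfra alone, and 2 of 7 were measured. The choroid plexus list summed to 58.4 to 1119 FPKM in 5xFAD and 453 to 863 FPKM in wild type, and it was 5xFAD-1 that held the low end. The brown and white fat list came to 6.87 to 1586 FPKM in 5xFAD, with the top in 5xFAD-2, against 3.38 to 19.3 FPKM in wild type. Their part in the values of Ptgds, Slc22a6 and the other genes was not tested.

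Other products of fibroblasts were read from 2 further lists. Of 24 fibroblast matrix genes 23 lay below 0, with a median of −0.52, and 0 passed, where 6712 of all 13094 genes tested lay below 0. Genes of a list can rise and fall together with single libraries, so that such counts are not counts of independent genes. Lists of other cell types also lay to one side without a call, with 7 of 8 osteoblast and osteocyte genes (median −1.09), 9 of 9 of smooth muscle and pericytes (−0.55), 8 of 9 of endothelium (−0.33), 9 of 9 of choroid plexus (−0.82) and 6 of 6 of neutrophils (−0.76) below 0. Of the fat genes, far highest in 5xFAD-2, 6 of 6 lay above 0 (1.58). Above 0 were also 4 of 7 astrocyte, 3 of 5 oligodendrocyte, 1 of 2 oligodendrocyte precursor and 1 of 3 cartilage genes. Of 10 pinealocyte genes 7 lay above 0 (median 0.39). Of these 3 had an unadjusted p under 0.05 from limma, where 602 of all 13094 genes tested were higher at that p. The sum of the 10 was 2166 to 3589 FPKM in 5xFAD and 1407 to 3212 FPKM in wild type. Without 5xFAD-21 and Normal-22 it was 9 of 10 pinealocyte genes (0.75). Their part in the values of the matrix genes was not tested. Fbln2, the matrix protein fibulin 2, had 2.21 ± 0.60 FPKM in 5xFAD and 4.37 ± 1.38 FPKM in wild type (SD, n = 4 each), with all 4 5xFAD libraries below all 4 wild type libraries, a log2 fold change of −0.94 (unadjusted p = 0.0093, adjusted p = 0.545 from limma). Col1a1, the collagen of bone and fibrous tissue, stood at −2.18 (adjusted p = 0.636) and Mgp, matrix Gla protein, at −0.33 (0.911). Among 19 measured other meningeal genes 7 lay above 0 and 12 below it, and 0 passed. Apod, apolipoprotein D, had 170 ± 52.2 FPKM in 5xFAD and 98.5 ± 25.4 FPKM in wild type (SD, n = 4 each), a log2 fold change of 0.76 (unadjusted p = 0.0275, adjusted p = 0.598). Igf2, the growth factor of the meninges, stood at −0.90 (0.607), Crym at −0.97 (0.588) and Igfbp2 at −0.39 (0.854). Igfbp2 had 36.3 FPKM in 5xFAD-1 and 185 to 268 FPKM in the other 5xFAD libraries, against 138 to 220 FPKM in wild type.

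**Figure D5:**
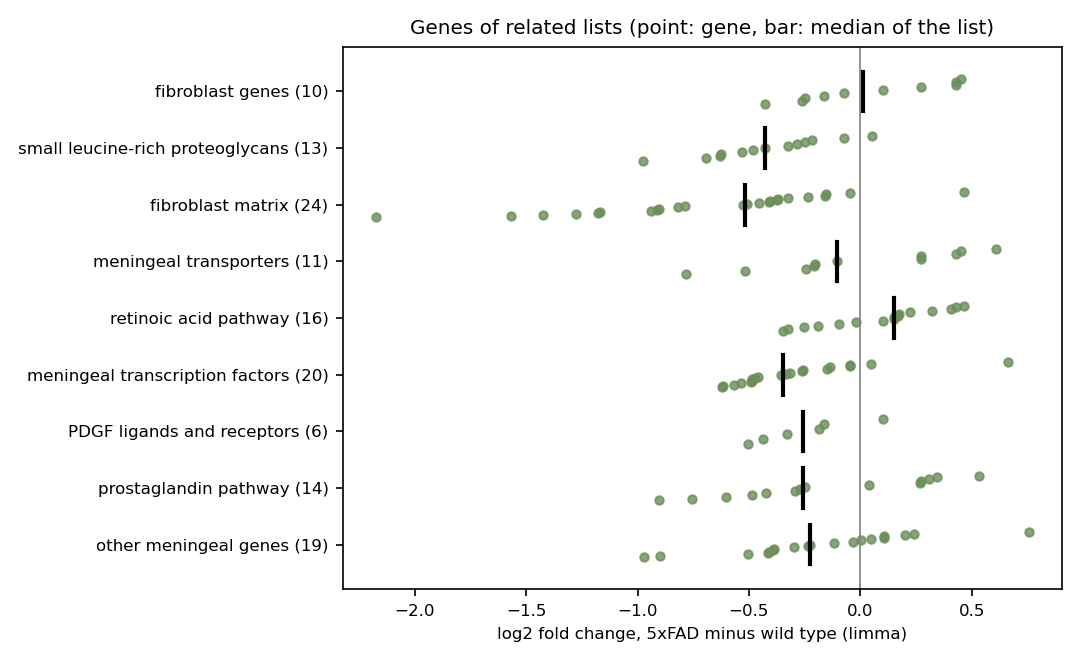
Log2 fold change, 5xFAD minus wild type, of every measured gene (points) of the 10 fibroblast genes and of 8 related lists, with the median of each list as a bar. Each of the 10 is drawn again in the related list it belongs to. No gene shown passed an adjusted p of 0.05; the medians run from −0.52 for fibroblast matrix to 0.15 for the retinoic acid pathway.

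The genes outside the 10 whose log2 levels were most like the mean deviation of the 10 over the 8 libraries were Fam20c, a secretory kinase (r = 0.97), Itm2c (r = 0.97), Bche, butyrylcholinesterase (r = 0.97), Aspa, aspartoacylase (r = 0.96), and Col25a1, a membrane collagen (r = 0.96). They are the top 5 by this measure among all genes tested outside the 10, so that no p value is given. Bche had 5.28, 9.60, 12.5 and 1.71 FPKM in the 5xFAD libraries, against 6.70, 10.2, 1.47 and 7.32 FPKM in the wild type libraries, again lowest in 5xFAD-21 and Normal-22.

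The titles of the libraries fall into those numbered 21 to 23 (5xFAD-21, Normal-21, Normal-22 and Normal-23) and the others (5xFAD-1, 5xFAD-2, 5xFAD-3 and Normal-11), and what the numbers mark is not stated. The directions of 5 genes did not hold within both sets. Among the others, with 3 5xFAD libraries against 1, the log2 difference was 1.10 for Slc6a13, 0.99 for Slc22a6, 0.54 for Aldh1a2, 0.59 for Crabp2 and 0.63 for Ptgds. Among those numbered 21 to 23, with 5xFAD-21 alone against 3, it was −0.63, −0.79, −0.37, −1.52 and −0.25 for the same genes in the same order. Lum, Dcn, Ogn, Foxc1 and Pdgfra lay below 0 in both sets, from −0.78 to −0.14 in the first and from −1.39 to −0.25 in the set numbered 21 to 23. With the set as a term in limma, Lum stood at −1.07 (unadjusted p = 0.028, adjusted p = 0.385), Ogn at −0.89, Slc6a13 at 0.23 and Aldh1a2 at 0.09, and none of the 10 passed. In each set 1 of the groups is a single library, with no replicate spread.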

How the data were processed

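The authors deposited a table of FPKM. According to the methods and the labels' processing notes, the authors trimmed paired reads of stranded, rRNA-depleted libraries with Trimmomatic, aligned them to mm10 (GRCm38.p6) with STAR and computed FPKM per gene with Cuffnorm on GENCODE M17; versions and the scaling of Cuffnorm are not given in the sources used here. From the deposited FPKM, protein-coding genes with a mean of at least 1 FPKM over 8 libraries were compared, 5xFAD minus wild type, with limma 3.58.1 in R 4.3.3 (eBayes with a trend) on log2(FPKM + 0.1), with no covariate. P values were adjusted by Benjamini-Hochberg over all 13094 genes. The fit was also run on simulated data, in which genes varied independently. That run cannot show how the fit behaves when many genes shift together in single libraries. Coordinates are from GENCODE M21 (GRCm38), which matched 53616 of 53710 IDs without their version, and promoters from RefSeq. Tables were handled in Python 3.11.15. The genes and lists were chosen with earlier results of these data known. Named were the 10 genes, per list of related genes the 2 others of smallest p and the 2 of highest level, and the 5 most alike, while lists of other cell types were given by their range; Tph1 was named as the most abundant pinealocyte marker; Slc22a8, Slc6a12, Nol8 and the proteoglycan neighbours were named for their position, and Mog, Cldn11, Xist and Ddx3y after their values were seen. Lists of neutrophil, astrocyte and cartilage markers had medians of −0.76, 0.16 and −0.93, with 0 genes called by limma. Alternatives covered pseudocount, filter, scaling, covariates, weights and left-out libraries. The column of means was not used.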

Additional observations from a re-analysis of the deposited data

How the results depend on the processing

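None of the 10 fibroblast genes passed an adjusted p of 0.05 from limma in any of 22 alternatives, in which the smallest adjusted p was 0.107. The number of all genes called was 5 and became 8 without a filter on low values, 0 over genes above 0 in every library (1030 at an unadjusted p under 0.05), 9 with array weights, 8 with every biotype, 4 to 92 with 1 library left out (92 without Normal-22) and 29 without Normal-22 and 5xFAD-21. Crabp2 turned to −0.46 with the set of titles as a term, −0.0184 with array weights, and −0.10, −0.15 and −0.22 without 5xFAD-2, 5xFAD-3 or Normal-22. Without 5xFAD-21, Normal-11 or Normal-21, Dcn turned to 0.32, 0.08 and 0.16 and Ogn to 0.10, 0.05 and 0.05, and Foxc1 turned to 0.0108 without 5xFAD-21. With 1 library left out, Crabp2 ranged from −0.22 to 0.65, Dcn from −0.43 to 0.32, Ogn from −0.77 to 0.10 and Foxc1 from −0.48 to 0.0108. The other 6 genes kept their sign but moved, with Lum at −0.73 to −0.03, Pdgfra at −0.25 to −0.09, Slc6a13 at 0.12 to 0.77, Slc22a6 at 0.09 to 0.82, Aldh1a2 at 0.30 to 0.71 and Ptgds at 0.00524 to 0.57. The median of the 10, at 0.01, was −0.37 with the set term, −0.12 with a minimum of 5 FPKM, −0.08 with array weights, −0.02 after quantile normalization and −0.23 to 0.37 with 1 library left out. No paired analysis was possible because the titles of the groups share only the number 21. A replicate block by order of deposition, which pairs nothing in the labels, gave 4 genes called, 0 of the 10 and a median of 0.01. Slc6a13 and Slc22a6 were not tested at a minimum of 5 FPKM. At its lowest, Slc22a6 rested on about 23.4 fragments by its transcript length in GENCODE M21. The causes of these changes were not tested.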
